A study of Homo sapiens with 4 samples.

Results

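What histidine added to 6-mercaptopurine (6-MP) was measured as the difference between 2 RNA-seq libraries of Reh-6-MPR cells, one treated with histidine + 6-MP and the other with 6-MP alone, out of 4 libraries in the series. A gene entered when its mean FPKM over the 4 libraries was at least 1, which kept 12750 of 29833 genes. FPKM counts the reads of a gene relative to its length and to the reads of the library. Reh is a long-used cell line of human B-cell acute lymphoblastic leukemia (B-ALL), and Reh-6-MPR is a form of it that is resistant to 6-MP. All 4 libraries came from this 1 line after 48 h of treatment with PBS as the vehicle, with 4 mM histidine, with 1.0 μg/mL 6-MP, or with histidine and 6-MP together at the same doses. The parental line was not analysed here. Histidine against vehicle uses the other 2 libraries, so the effect of histidine with 6-MP and its effect without 6-MP share no library and could be set side by side.

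6-MP is a purine analogue that blocks purine synthesis. Cells also convert it into thioguanine nucleotides, which are built into DNA, where mismatch repair recognises the damage. A lesion of this kind can activate p53, a transcription factor that switches on cell cycle inhibitors, DNA repair genes and cell death genes. Histidine is an essential amino acid whose breakdown uses tetrahydrofolate, the carrier of one-carbon units that purine synthesis also draws on.

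Each treatment had 1 library. The differences therefore have no check by replicates, and p-values are not given. Differences are of log2(FPKM + 1), a scale on which changes at low FPKM come out too small, and "past the fold" means a difference of at least 1 in size on that scale. The reads behind the deposited values were recovered, and 95% intervals are exact Clopper-Pearson intervals of the log2 read ratio between 2 libraries, which cover counting error only. They were set against 0. The share of all tested genes with an interval off 0 was not counted, so list counts of such intervals have no background beside them. The libraries held 12899122 reads with histidine + 6-MP and 14316493 to 15486376 in the others. Reads above 0 were found for 25443 genes with histidine + 6-MP and for 23635 to 23978 in the others. In bulk RNA, fewer cells with a transcript and less of it per cell cannot be told apart.

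The cells carried the markers of B-cell precursors in all 4 libraries. All 12 B-precursor markers in the table were expressed, with a summed FPKM between 1661 and 1748. DNTT, the polymerase that adds bases at antigen receptor joints, stood at an FPKM of 557 under vehicle, 563 under histidine, 625 under 6-MP and 497 under both. Of 6 T cell markers, 3 were analysed, and their summed FPKM was 0.026 to 0.12 in 3 libraries and 0.42 with histidine + 6-MP. The 5 myeloid markers analysed of 8 summed to between 27.2 and 31.3 in 3 libraries and to 43.8 with both, nearly all of it MPO, the granule enzyme of myeloid cells, while CD14 stayed at or below 0.17. For the 4 erythroid markers analysed of 8 the sums were 8.65 to 10.1 and 14.0, mostly EPOR, and for the 2 stromal markers of 6 they were 8.68 to 9.39 and 14.4, mostly PDGFRB. These sums moved with histidine + 6-MP, and their part in the results was not tested.

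With histidine added to 6-MP, a broad set of genes was past the fold, and most of them were higher. Of the 12750 genes, 614 were higher (4.82% of all tested) and 153 lower (1.2%). Among the 9997 protein-coding genes 310 were higher and 71 lower, and the counting interval of each of these 381 genes lay on its own side of 0. The median over all genes was itself 0.13 above 0, or 0.11 over protein-coding genes, so a group of genes was read against that level. After a scaling in which each library is divided by its median ratio to the genes' geometric means, the median became -0.065 and the split became 375 higher and 274 lower, which is 57.8% higher in place of 80.1%.

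Without 6-MP, the same dose of histidine gave far fewer such genes, and most of them rest on few reads. A total of 170 genes (1.33%) were past the fold, 102 higher and 68 lower, and 19 of them were protein-coding. Of the 170, 88.2% had under 50 reads in both libraries together, with a median of 8 reads, against a median of 188 reads for the 767 genes past the fold with 6-MP. A counting interval off 0 was found for 62 of the 170 and for 641 of the 767. The standard deviation across protein-coding genes was 0.15 without 6-MP and 0.44 with it.

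**Figure D1:**
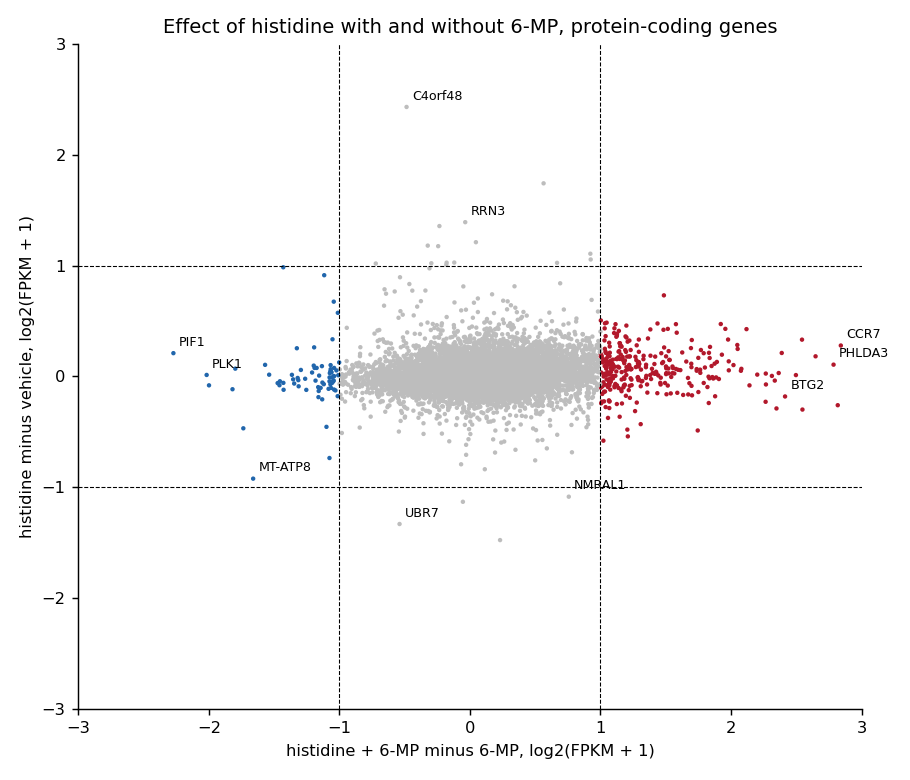
Each point is 1 of 9997 protein-coding genes, with the difference of log2(FPKM + 1) between histidine + 6-MP and 6-MP on the horizontal axis and between histidine and vehicle on the vertical axis. Red and blue points are the 310 higher and 71 lower genes at a fold of 1 (dashed lines), and the cloud runs along the horizontal axis. The corners where both effects pass the fold hold 0 genes, and only 19 genes in all pass it on the vertical axis.

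Gene by gene, the effect of histidine with 6-MP correlated only weakly with its effect alone. Across all 12750 genes Pearson's r between both effects was 0.079 and Spearman's rho 0.12, and over the 6735 protein-coding genes at a mean FPKM of 5 or more they were 0.10 and 0.12. These values describe genes, which are not independent replicates. None of the 381 protein-coding genes past the fold with 6-MP was past it without. Only 19 of all 9997 protein-coding genes were past it without 6-MP, so the lack of overlap cannot be read as a result. Of the 310 higher genes 306, and of the 71 lower genes 65, moved by under 0.5 without 6-MP. Their median without 6-MP was 0.067 for the higher and -0.021 for the lower genes. Of these genes, 6-MP alone against vehicle gave medians of -0.022 and -0.0080, set beside the others although it shares libraries with both effects. The difference between the effect with and the effect without 6-MP was past 1 in size in 862 genes (6.76%), 619 above and 243 below, or 434 and 357 after scaling by the median ratio.

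**Figure D2:**
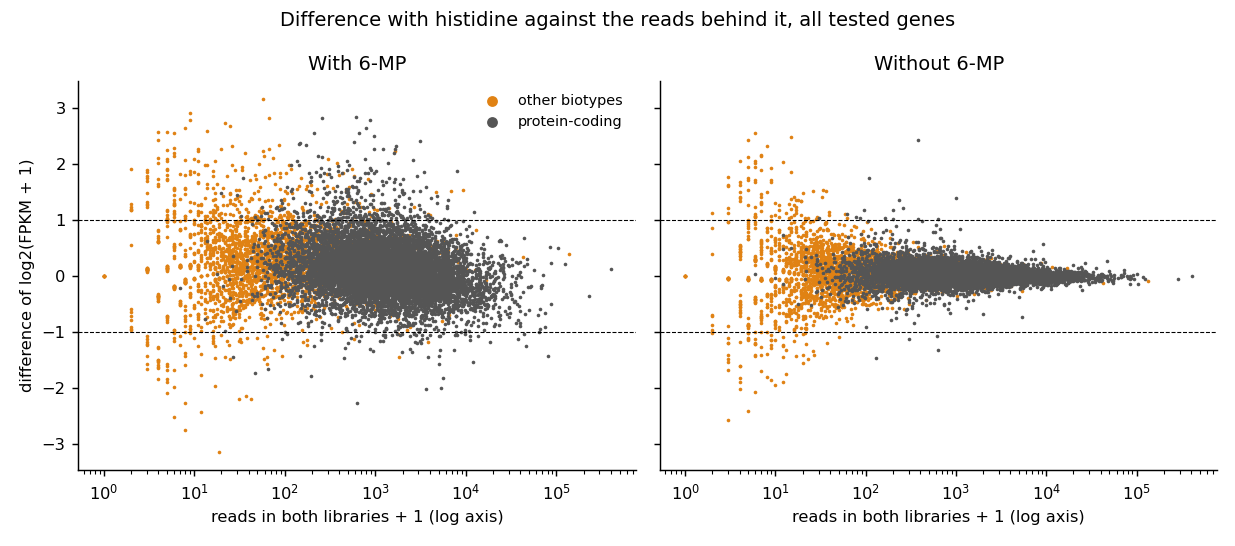
Both panels plot the difference of log2(FPKM + 1) for all 12750 genes against the reads in both libraries (log axis), at left histidine + 6-MP against 6-MP and at right histidine against vehicle, with dashed lines at a fold of 1. At right the points past the fold crowd at the low end, with a median of 8 reads, while at left protein-coding genes (grey) with many more reads pass it.

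The genes that p53 switches on had the highest median of the 39 lists with at least 5 tested genes. Of 26 tested targets 21 were past the fold with 6-MP, all higher, and 0 without 6-MP, with medians of 1.38 and -0.020. Over all genes 4.82% were higher past the fold with 6-MP. Without 6-MP only 19 of 9997 protein-coding genes were past it, so the 0 in this list says little. After scaling by the median ratio the median of the list was 1.17. With 6-MP alone against vehicle the median was 0.0092.

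PHLDA3, an inhibitor of AKT signalling (chromosome 1, 201464278 to 201469237 on GRCh38), stood at an FPKM of 1.34 under vehicle, 1.51 under histidine, 1.85 under 6-MP and 18.6 under histidine + 6-MP. Its difference was 2.79 with 6-MP, with a log2 read ratio between 3.02 and 3.66. BTG2, an antiproliferative gene (chromosome 1), had 12.1, 10.6, 12.8 and 72.4 in the same order, a difference of 2.41. For both genes the library with histidine + 6-MP stood alone and the other 3 lay together.

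CDKN1A, which encodes the cyclin-dependent kinase inhibitor p21, had FPKM values of 48.6, 42.8 and 41.4 with vehicle, histidine and 6-MP and 155 with both, a difference of 1.88. TP53INP1, a p53-induced autophagy and death protein, went with 2.74, 2.55, 3.14 and 18.9. FDXR, a mitochondrial reductase, had 5.67, 5.74, 5.43 and 28.6. The DNA repair gene DDB2 had 14.3, 15.1 and 13.3 in the first 3 libraries and 41.7 with both, and GADD45A, a stress-induced growth arrest gene, had 12.2, 11.6, 11.6 and 39.3. The death receptor genes FAS and TNFRSF10B were higher by 1.82 and 1.24.

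The other 5 tested targets were within the fold. MDM2, the ubiquitin ligase that keeps p53 low, had an FPKM of 37.1 under vehicle, 34.6 under histidine, 39.3 under 6-MP and 41.7 under both, a difference of 0.09. SESN2 had a difference of -0.029, TRIAP1 of 0.61, AEN of 0.84 and POLH of 0.96. PURPL, a long noncoding RNA known as induced by p53, had an FPKM of 2.88, 2.65, 3.27 and 19.1, a difference of 2.23 on 281 reads with 6-MP and 1378 with both. Within 250 bases before and 50 after the RefSeq start, a pair of p53 half-sites was found in 1 of 20 targets with a promoter in the RefSeq table (GRCh38.p14), AEN, and in 1.47% of all 27305 promoters. The search asked for an intact core in both half-sites, up to 13 bases between them and up to 2 other mismatches. Of the targets with a promoter, 0 of 15 past the fold and 1 of 5 within it held the pair. Sites outside this window were not searched, so the low count says little about p53 binding.

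**Figure D3:**
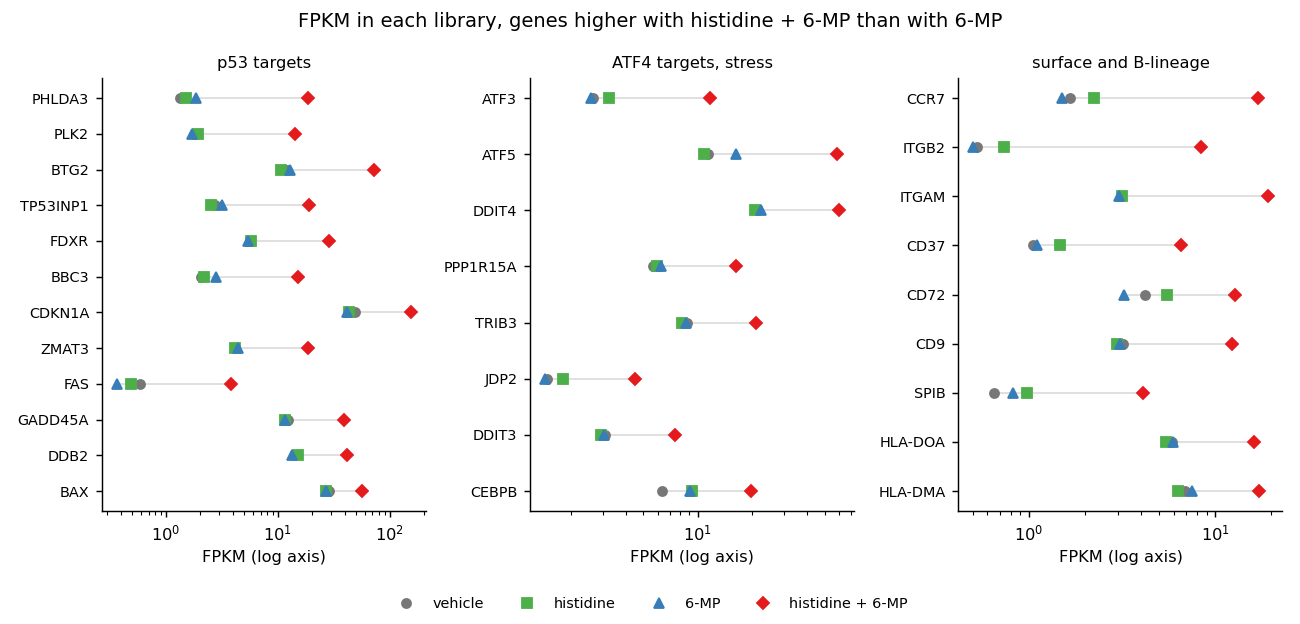
FPKM on log axes of genes higher with histidine + 6-MP, with 1 row for each gene and 1 marker for each of the 4 libraries, for p53 targets, ATF4 targets, and surface and B-lineage genes. The red diamond of histidine + 6-MP stands to the right of 3 overlapping markers in most rows, as for PHLDA3 at 18.6 against 1.34 to 1.85.

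Among the BCL2 family, which decides over mitochondrial cell death, the members past the fold were all on the death side. Of 13 tested, 5 were higher past the fold with 6-MP, against 4.82% of all genes. Without 6-MP 0 were past it, where 1.33% of all genes were in either direction. Among the 9997 protein-coding genes only 19 were, so this 0 says little. The medians were 0.51 with 6-MP and 0.017 without. After scaling by the median ratio 3 members were past the fold with 6-MP, with a median of 0.30. BBC3, a death activator of the BH3-only kind (PUMA), had an FPKM of 2.06 under vehicle, 2.21 under histidine, 2.82 under 6-MP and 15.2 under both. BMF, another BH3-only gene, had 1.49, 1.24, 1.45 and 6.36, HRK had 2.48, 2.86, 2.55 and 9.23, PMAIP1 had 19.5, 19.7, 21.1 and 45.2, and the pore former BAX had 28.4, 26.9, 26.7 and 56.3. The survival genes BCL2 and MCL1 lay at differences of -0.22 and -0.14, and BCL2L1 at 0.58. BBC3 and BAX also belong to the p53 list.

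Growth arrest genes that mark quiescent lymphocytes were higher as well. Of 21 quiescence and FOXO targets 5 were past the fold, all higher, against 4.82% of all genes, with a median of 0.61. After scaling by the median ratio 3 were past it, with a median of 0.39. PIK3IP1, an inhibitor of PI3 kinase, was at an FPKM of 0.40 under vehicle, 0.39 under histidine, 0.38 under 6-MP and 3.38 under both, a difference of 1.67. YPEL3 and CDKN2D, a p19 inhibitor of CDK4 and CDK6, were higher by 1.12 and 1.11. The remaining members past the fold were CDKN1A and BTG2, which the p53 list also holds.

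Of 48 tested mitosis genes 9 were lower past the fold and 0 higher with 6-MP, where 1.2% of all genes were lower. Without 6-MP 0 passed it, but only 19 of all 9997 protein-coding genes did. The median was -0.33 with 6-MP and -0.029 without, and 33 members had a counting interval below 0, while 6 had one above 0, the highest of them SPC25 at a difference of 0.72. With libraries scaled by the median ratio 14 were lower past the fold, with a median of -0.56. PLK1, the polo-like kinase of mitotic entry (chromosome 16, 23677656 to 23690367), stood at an FPKM of 44.9 under vehicle, 45.4 under histidine, 42.0 under 6-MP and 9.63 under both. Its difference was -2.02, on 3068 reads against 591. CDC20, the activator of the anaphase-promoting complex, had 157, 148, 144 and 35.3. AURKA, a spindle pole kinase, had 44.3, 43.5, 42.7 and 16.1, and CCNB1, cyclin B1, had 103, 102, 105 and 41.5. HMMR, KIF20A, CENPA, BUB1 and CKS2 were lower by 1.36 to 1.02 in size. In all 9 genes the other 3 libraries lay above the library with both.

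The cell cycle homology region (CHR), the letters TTTGAA on either strand, is the promoter element through which many G2 and mitosis genes are repressed, and it is shown for the mitosis genes past the fold that hold it. It was found in the RefSeq promoter window of 26 of the 40 mitosis genes with a promoter there (65%), in 9.33% of the tested protein-coding genes and in 15.4% of all 27305 promoters. Of the genes with a promoter, 5 of 8 past the fold and 21 of 32 within it held the element, so its presence did not separate them. The stretches are from GRCh38.p14, on the plus strand, with the motif in capitals (TTCAAA is the motif on the other strand).
PLK1, chr16:23678820-23678905, motif 29 to 24 bases before the start: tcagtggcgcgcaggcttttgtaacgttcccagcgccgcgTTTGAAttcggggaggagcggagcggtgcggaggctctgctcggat
CDC20, chr1:43358876-43358961, motif 65 to 60 bases before the start: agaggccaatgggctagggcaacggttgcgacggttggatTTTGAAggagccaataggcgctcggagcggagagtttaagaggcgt
HMMR, chr5:163460564-163460649, motif 28 to 23 bases before the start: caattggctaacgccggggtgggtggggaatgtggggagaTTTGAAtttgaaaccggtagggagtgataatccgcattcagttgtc
CENPA, chr2:26785998-26786083, motif 18 to 13 bases before the start: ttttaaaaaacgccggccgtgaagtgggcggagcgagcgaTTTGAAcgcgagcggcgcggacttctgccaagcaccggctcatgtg
CKS2, chr9:89311126-89311211, motif 29 to 24 bases before the start: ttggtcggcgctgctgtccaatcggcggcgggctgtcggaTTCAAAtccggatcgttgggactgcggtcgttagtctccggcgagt
HMMR carries the motif again directly after the first, and CDC20 a further one 178 to 173 bases before its start. A CCAAT box, on either strand, was found in 75% of the mitosis promoters and in 37.9% of the tested protein-coding genes.

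DNA replication genes did not move together. Of 43 tested, 2 were higher and 1 lower past the fold, near the shares of all genes, 4.82% and 1.2%. The median of 0.21 became -0.019 after scaling by the median ratio. The 2 higher genes were CDT1 and CCNE2. CDT1, the licensing factor, had an FPKM of 47.4 under vehicle, 49.6 under histidine, 49.2 under 6-MP and 115 under both. CCNE2, cyclin E2, had 6.20, 5.15, 5.69 and 12.6. UHRF1, which carries DNA methylation through replication, was lower, at 183 with both against 436 to 442 in the other 3 libraries. The replicative helicase subunits MCM6 and MCM7 were lower by 0.65 and 0.50 in size. Of 17 tested core and linker histone genes 3 were lower past the fold, against 1.2% of all genes, with a median of -0.32. The linker histone gene H1-2 had 3.44, 2.21, 3.74 and 0.42. The library kit selects poly(A) RNA, which most histone transcripts lack.

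**Figure D4:**
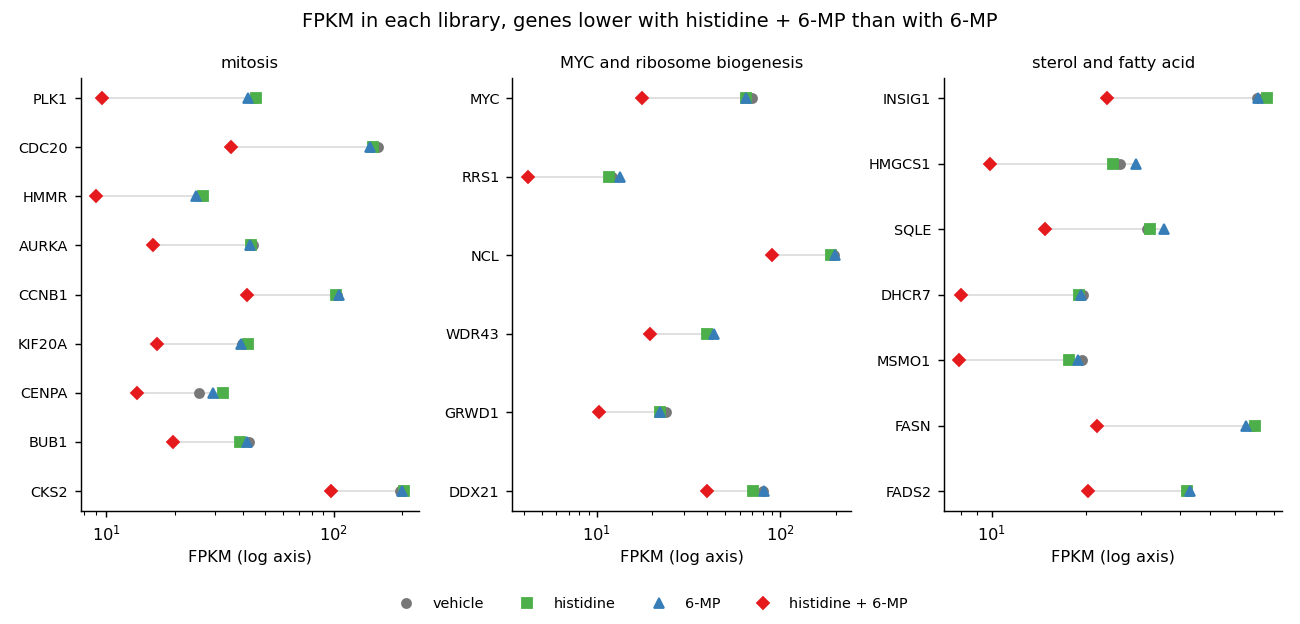
FPKM on log axes of genes lower with histidine + 6-MP, with 1 row for each gene and 1 marker for each of the 4 libraries, for mitosis, MYC with ribosome biogenesis, and sterol and fatty acid genes. The red diamond of histidine + 6-MP stands to the left of the other 3 markers in every row, as for MYC at 17.7 against 64.9 to 70.4.

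MYC, the transcription factor of growth genes, was lower, and with it much of the machinery that makes ribosomes. MYC stood at an FPKM of 70.4 under vehicle, 64.9 under histidine, 65.0 under 6-MP and 17.7 under both, a difference of -1.82 with 6-MP and -0.12 without. Its partners and antagonists differed less: MAX was at 0.20, MNT at 0.32, and MXD3 and MXD4, which oppose MYC, both at 0.67. In this list of 10 tested genes 1 was lower past the fold, with a median of 0.26. After scaling by the median ratio MAX was at -0.021 and the median of the list was 0.068. Of 39 ribosome biogenesis genes 5 were lower past the fold and 0 higher, where 1.2% of all genes were lower. After scaling by the median ratio 16 were lower past the fold. The median was -0.73, or -0.93 after scaling by the median ratio, and 35 members had a counting interval below 0. Without 6-MP the median was -0.051, and RRN3 alone was past the fold.

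RRS1, an assembly factor of the large ribosomal subunit, had an FPKM of 12.1 under vehicle, 11.6 under histidine, 13.4 under 6-MP and 4.19 under both. NCL, nucleolin, had 197, 190, 199 and 90.6. WDR43, GRWD1 and the RNA helicase gene DDX21 were lower by 1.12, 1.04 and 1.01 in size. FBL, the methyltransferase of ribosomal RNA, went the other way, at 22.6, 32.9, 17.6 and 31.7, and was higher with histidine in both pairs of libraries. An E-box (CACGTG), the element that MYC and MAX bind, was found in 11 of 33 ribosome biogenesis promoters (33.3%), in 10.4% of the tested protein-coding genes and in 7.43% of all promoters. It is shown for UTP20, a small subunit factor with a difference of -0.91, where the E-box in capitals lies 10 to 5 bases before the start, on the plus strand of GRCh38.p14.
UTP20, chr12:101280055-101280134: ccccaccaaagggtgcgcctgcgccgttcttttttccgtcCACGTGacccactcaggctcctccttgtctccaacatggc
Of the members with a promoter, 1 of 4 past the fold and 10 of 29 within it held an E-box.

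The ribosomal proteins themselves stayed at the level of the median gene. Of 78 tested 1 was higher and 1 lower past the fold, beside 4.82% and 1.2% of all genes. The median of 0.12 turned to -0.12 after scaling by the median ratio. RPL7A was lower with histidine in both pairs, at an FPKM of 102 with vehicle and 60.7 with histidine, and 109 with 6-MP and 51.1 with both. Ribosomal protein genes have many near-identical pseudogenes, and the counting could split their reads. The hosts of small nucleolar RNAs went apart: of 16, 4 were higher and 2 lower past the fold, against 4.82% and 1.2% of all genes. Their median of 0.046 turned to -0.14 after scaling by the median ratio. SNHG1 had 40.7, 40.6, 44.4 and 130, SNHG7 had 14.6, 18.5, 18.1 and 52.7, whereas SNHG4 had 21.5, 21.4, 20.7 and 6.96.

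Genes of sterol and fatty acid synthesis, which the SREBP factors control, were lower. In the sterol list of 24 tested genes 7 were lower past the fold and 0 higher, where 1.2% of all genes were lower. The median was -0.56 with 6-MP and -0.034 without. INSIG1, the sensor protein that holds SREBP in the endoplasmic reticulum, had an FPKM of 70.6 under vehicle, 75.9 under histidine, 71.1 under 6-MP and 23.3 under both. HMGCS1, a synthase early in the pathway, had 25.8, 24.4, 28.9 and 9.87. SQLE, DHCR7 and MSMO1, further enzymes of the pathway, were also past the fold. SREBF1 and SREBF2, the genes of the factors themselves, were lower by 0.95 and 0.83 in size.

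Among 8 fatty acid synthesis genes 2 were lower past the fold, against 1.2% of all genes, with a median of -0.65. FASN, fatty acid synthase, had 68.7, 69.4, 65.1 and 21.7, and FADS2, a desaturase, had 42.1, 42.2, 43.1 and 20.4. ACLY, which supplies acetyl-CoA, lay just inside the fold at -0.99. A sterol regulatory element (TCACNCCAC, either strand) was found in 1 of 19 sterol promoters, that of SREBF2, and in 1.15% of all promoters. Only exact matches within the window of 300 bases were searched, so the low count says little about SREBP binding. A CCAAT box was found in 78.9% of the sterol promoters and in 37.9% of the tested protein-coding genes.

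Transcripts for energy metabolism were lower on the mitochondrial side. All 13 mitochondrially encoded subunits had a difference and a counting interval below 0, with a median of -0.67. Of these 1 was past the fold, where 1.2% of all genes were lower, or 4 after scaling by the median ratio. MT-CO3 had an FPKM of 4672 under vehicle, 4205 under histidine, 4288 under 6-MP and 2277 under both. Histidine against vehicle gave a median of -0.093 in this list, with 10 of 13 counting intervals below 0. Against the same vehicle library, 6-MP alone gave a median of -0.12. MT-ATP8, the member past the fold, rests on few reads, 52 with 6-MP and 12 with both, and 64 and 35 in the pair without 6-MP. Subunits encoded in the nucleus differed less, with 1 of 57 past the fold (higher, beside 4.82% of all genes) and a median of -0.27. Of 22 glycolysis and hypoxia genes none was past the fold, with a median of -0.18, the lowest being PGK1 at -0.97 and the highest ENO2 at 0.89. After scaling by the median ratio 3 of these were lower past the fold and the median was -0.40.

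ATF4 is a transcription factor of the response to amino acid shortage and other stress. Of 27 tested targets 8 were higher past the fold, against 4.82% of all genes, and 0 lower. The median was 0.30 with 6-MP and 0.0056 without. With 6-MP, 10 members lay below 0, and 8 had a counting interval below 0, while 15 had one above 0. Scaling by the median ratio left 4 past the fold and a median of 0.069, and without a filter on low values the median was 0.12. ATF3 had an FPKM of 2.66 under vehicle, 3.24 under histidine, 2.58 under 6-MP and 11.7 under both. ATF5, a further factor of this family, had 11.3, 10.8, 16.2 and 58.4, and DDIT4, an inhibitor of mTORC1, had 20.9, 20.5, 22.4 and 60.3. PPP1R15A, TRIB3, JDP2, DDIT3 and CEBPB were higher by 1.23, 1.19, 1.17, 1.07 and 1.03. ATF3 and DDIT4 are also induced by p53. The enzymes SHMT2 and MTHFD2 of the same list were at 0.41 and 0.29.

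Aminoacyl-tRNA synthetases had 1 of 20 lower past the fold, VARS1, where 1.2% of all genes were lower, and a median of -0.31. None of 16 unfolded protein response genes was past the fold, with a median of -0.023, and the chaperone HSPA5 was at -0.72. Of 18 cytosolic chaperones 1 was lower past the fold, beside 1.2% of all genes, with a median of -0.51. This was CCT5, a subunit of the ring that folds actin and tubulin, at 97.5, 90.7, 92.6 and 41.3.

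The 12 purine synthesis genes had 0 past the fold and a median of -0.49 with 6-MP and -0.027 without, and 11 had a counting interval below 0. With libraries scaled by the median ratio 2 were lower past the fold, with a median of -0.72. PFAS, PAICS, PPAT and GART, which act in the de novo pathway, were lower by 0.87, 0.71, 0.69 and 0.65 in size, while IMPDH2, the branch enzyme toward guanine nucleotides, was at 0.61. The 15 folate one-carbon genes had 0 past the fold and a median of -0.27, or -0.48 after that scaling. In the 11 thiopurine genes 0 were past the fold, or 1 (higher) with a pseudocount of 0.1, and the median of 0.083 turned to -0.13 after scaling by the median ratio. HPRT1, which activates 6-MP, and TPMT, which methylates it, were at 0.56 and 0.41.

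Among 8 mismatch repair genes the median was 0.062, or -0.16 after scaling by the median ratio, and EXO1 was highest at 0.68. Of 15 histidine handling genes in the table only 6 were expressed enough to be tested, with a median of 0.075 that also turned, to -0.14. The breakdown enzyme HAL had 9 reads under vehicle, 22 under histidine, 8 under 6-MP and 10 under both, and AMDHD1 had 14, 30, 16 and 43, both below a mean FPKM of 1. UROC1 had at most 1 read in a library, and FTCD had 4, 4, 2 and 16. SIRT5, a mitochondrial sirtuin that the study followed, had a difference of 0.33 in a list of 7 sirtuins with none past the fold and a median of 0.20, which turned to -0.024 after scaling by the median ratio. For 9 polyamine genes, 13 NRF2 targets and 11 metal homeostasis genes, none past the fold, the medians were -0.13, -0.23 and 0.058, the last -0.16 after scaling by the median ratio. Both ferritin genes FTH1 and FTL, which store iron, were at 0.40.

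Surface and adhesion genes of lymphocytes were among the highest. CCR7, the chemokine receptor that guides lymphocytes to lymph nodes (chromosome 17, 40553769 to 40565472), had the largest difference of the protein-coding genes at a mean FPKM of 5 or more. It stood at an FPKM of 1.67 under vehicle, 2.24 under histidine, 1.51 under 6-MP and 16.97 under both, a difference of 2.84 on 58 and 549 reads. Of 16 adhesion and homing genes 4 were higher past the fold, against 4.82% of all genes, with a median of 0.52. ITGB2, an integrin beta chain, had 0.53, 0.73, 0.50 and 8.42. Its alpha partner ITGAM, which is not a member of this list, had 3.14, 3.16, 3.06 and 19.2. RGS16, a regulator of chemokine receptor signalling, had 0.058, 0.080, 0.081 and 4.57. ITGAM and ITGB2 are also known from myeloid cells, whose marker LYZ had 0.32, 0.037, 0.11 and 1.39. The part of other cells in this result was not tested.

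B-lineage genes were mixed, with 4 of 31 higher past the fold, against 4.82% of all genes, and 0 lower. Their median of 0.11 turned to -0.051 after scaling by the median ratio. CD72, a B-cell coreceptor, had 4.21, 5.53, 3.24 and 12.8, CD37, a tetraspanin, had 1.06, 1.47, 1.11 and 6.56, and CD9 had 3.20, 2.96, 3.10 and 12.3. SPIB, a transcription factor of mature B cells, had 0.65, 0.98, 0.82 and 4.11. On the lower side stood CD24 at -0.70 and LEF1 at -0.59. The 12 B-precursor markers had a median of 0.13, or -0.091 after scaling by the median ratio, with PAX5 at -0.41. IGLC3, an immunoglobulin light chain constant gene named here after its values were seen, had 0, 0, 1 and 55 reads, and its near-identical copies make the counting uncertain.

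Antigen presentation by MHC class II was higher in every tested gene. Of 7 tested, 2 were past the fold, against 4.82% of all genes on the higher side. The median was 0.68 with 6-MP, or 0.45 after scaling by the median ratio, and -0.076 without. HLA-DOA, a modulator of peptide loading, had 5.89, 5.47, 5.95 and 16.2, and HLA-DMA, the loading factor, had 6.87, 6.35, 7.50 and 17.3. In the MHC class I list HLA-E was the 1 of 12 past the fold, beside 4.82% of all genes on the higher side, at 30.5, 31.4, 32.3 and 88.6. The median of this list, 0.076, turned to -0.15 after scaling by the median ratio. Of 30 interferon-stimulated genes 0 were past the fold, but 22 had a counting interval above 0 and 0 below, with a median of 0.43. The median of this list was 0.23 after scaling by the median ratio. Immediate early genes had 3 of 11 higher past the fold, ATF3, IER5 and JUN, against 4.82% of all genes, with a median of 0.54. That median was 0.13 at a mean FPKM of at least 5, 0.19 without a filter and 0.75 with a pseudocount of 0.1. After scaling by the median ratio 2 were past the fold, with a median of 0.40.

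Of 13 NF-kappaB genes RELB was higher and NFKBIB lower past the fold, beside 4.82% and 1.2% of all genes. Their median was 0.18, or 0.012 after scaling by the median ratio. Of 31 lysosome and autophagy genes 1 was higher past the fold, where 4.82% of all genes were higher. With a pseudocount of 0.1 the count was 4. The median was 0.23. After scaling by the median ratio 0 were past it and the median was 0.017. In the actin cytoskeleton list of 30 genes ACTB was lower and GSN higher past the fold, beside 1.2% and 4.82% of all genes. The list median of 0.018 turned to -0.21 after scaling by the median ratio. ACTB had 976, 937, 916 and 340, while ACTG1, with a nearly identical coding sequence, had 730, 709, 765 and 1079, so their split is uncertain. The 9 tubulins had a median of -0.19 and none past the fold.

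**Figure D5:**
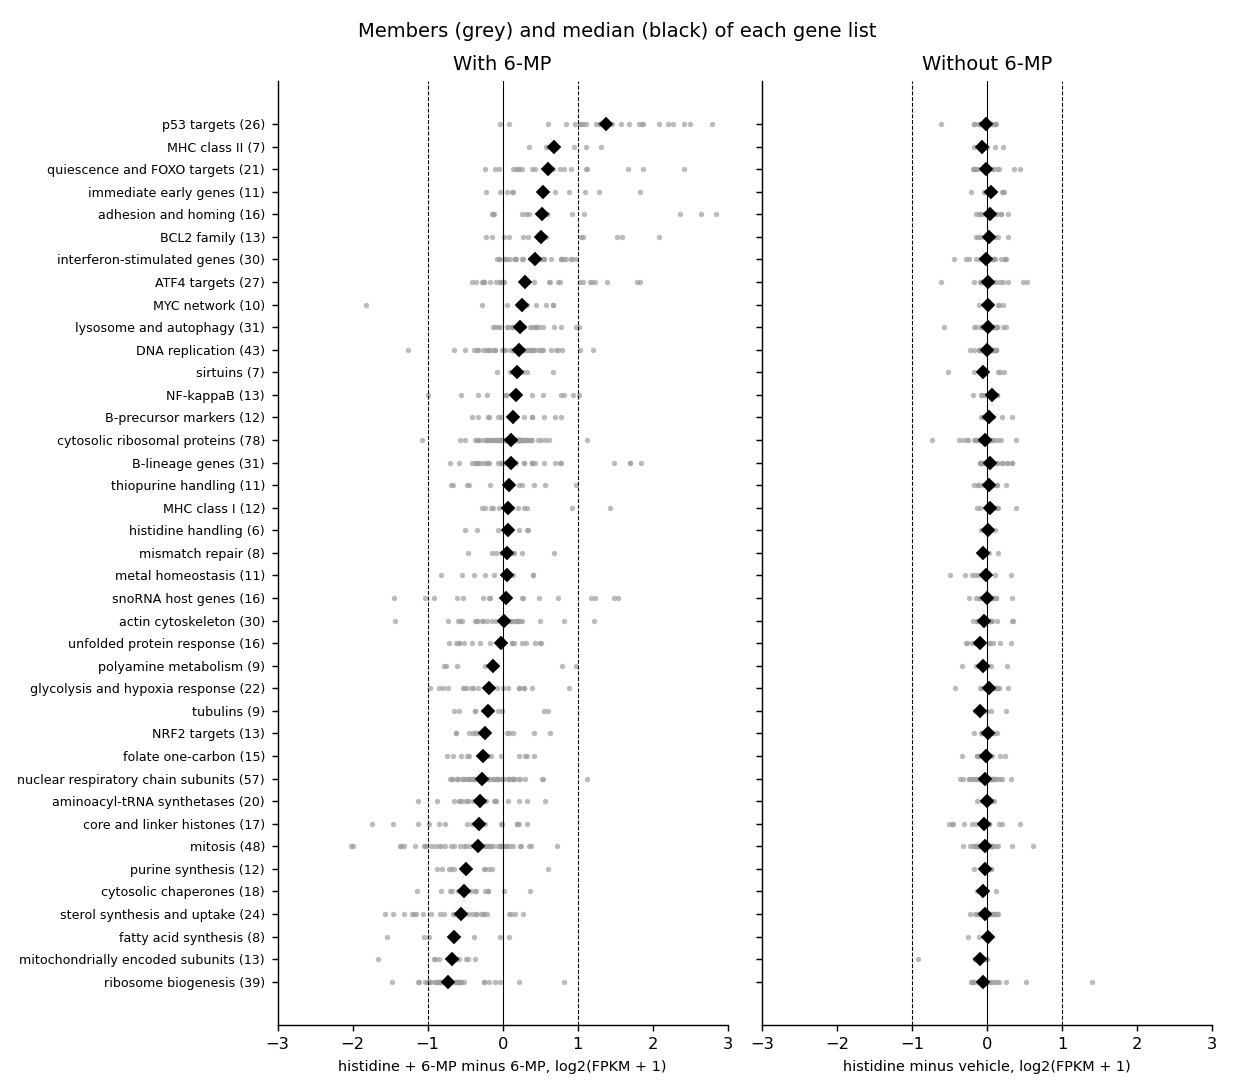
Every tested member (grey) and the median (black diamond) of 39 gene lists with at least 5 tested genes, on the left for histidine + 6-MP against 6-MP and on the right for histidine against vehicle, as differences of log2(FPKM + 1). The p53 list lies farthest right at a median of 1.38 and ribosome biogenesis farthest left at -0.73, while every median at right lies near 0. After scaling by the median ratio 12 of the medians at left change sign.

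Several of the genes farthest from 0 belong to no list. FCGRT, the neonatal Fc receptor that recycles antibodies, had an FPKM of 1.34 under vehicle, 1.39 under histidine, 2.41 under 6-MP and 15.4 under both. TNFSF4, the ligand of the costimulatory receptor OX40, had 4.79, 3.94, 3.31 and 19.7. IGFBP4, a binding protein of insulin-like growth factors, had 10.7, 11.2, 16.2 and 71.5. CYRIA, an inhibitor of actin branching, and NPY, neuropeptide Y, were higher by 2.02 and 1.93.

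At a mean FPKM of 5 or more the lowest protein-coding gene was PIF1, a DNA helicase that resolves unusual DNA structures and acts at telomeres (chromosome 15). PIF1 had 8.06, 9.47, 8.09 and 0.88, which is a difference of -2.27 on 578 and 53 reads. PEG10, an imprinted gene derived from a retrotransposon, had 37.0, 33.9, 37.5 and 13.3. Of the 310 higher genes 55 and of the 71 lower genes 34 were members of a list. The lists were chosen with earlier results of these data known. The share of list members among all tested genes was not counted, so these counts are description only.

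Genes that are not protein-coding made up 386 of the 767 past the fold with 6-MP and 151 of the 170 without. Of all 12750 tested genes, 9997 were protein-coding. Long noncoding RNAs accounted for 126 higher and 18 lower genes of 1368, beside 4.82% and 1.2% of all genes. Short RNAs rest on few reads: SNORA63 had 3 reads with 6-MP and 16 with both, RNU6-242P had 2 and 19, RNU7-3P had 3 and 13, MIR5587 had 10 and 1, SNORD101 had 26 and 4, SNORA73B had 32 and 4, and SNORA11F had 50 and 13. The kit selects poly(A) RNA, and for these short genes the counting could take reads of a host transcript.

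Few protein-coding genes were past the fold with histidine alone, and the vehicle library stood by itself in several of them. C4orf48 had an FPKM of 6.56 under vehicle, 39.8 under histidine, 42.0 under 6-MP and 29.7 under both. INAFM1 had 1.42, 7.08, 7.61 and 11.7, and NDUFAF8, an assembly factor of complex I, had 10.1, 21.5, 20.1 and 16.2. In these 3 genes the 3 treated libraries lay together above vehicle. RRN3, the initiation factor of RNA polymerase I, was at 3.98 under vehicle, 12.1 under histidine, 8.46 under 6-MP and 8.22 under both, and UBL7 was at 4.11, 9.28, 5.77 and 4.98.

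On the lower side UBR7 had 9.26 with vehicle and 3.07 with histidine, and 8.54 with 6-MP and 5.57 with both, so it was lower with histidine in both pairs, by 1.33 and 0.54 in size. NMRAL1 had 8.60, 3.52, 2.78 and 5.38, and HRAS, a signalling GTPase, had 6.74, 3.74, 7.66 and 7.48. Of the genes past the fold in the same direction in both effects, 28 were higher and 10 lower, and none of them was protein-coding. The highest 5 of these, 3 copies of Y RNA with RNU7-149P and MIR6767, had 0 reads with vehicle and with 6-MP and 2 to 7 reads in each library with histidine.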

How the data were processed

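RNA from 4 cultures of Reh-6-MPR cells was made into libraries with a stranded poly(A) kit, per the labels. The authors deposited FPKM values per gene. The submitters' processing notes name Trimmomatic, HISAT2, HTSeq, Cufflinks and GRCh38. The release of the annotation and the strand setting of the counting are not given in the sources used here, so overlapping and antisense genes cannot be told apart. FPKM divides by all reads of a library, so abundant genes that differ shift all others.

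The deposited FPKM values were used as they stand. Differences were taken of log2(FPKM + 1), with a pseudocount of 1, over genes whose mean FPKM reached 1, and counted at a size of at least 1. There are no replicates, so no test across genes was run. Whole reads were recovered for 29832 of 29833 genes within 0.001 of a whole number, from each library's denominator and exon lengths of GENCODE 29, where 28905 gene IDs were found. The annotated length was used for 15753 genes, the shortest length that gives whole reads for 13586 and a multiple of it within 10% of the annotated length for 494, a rule set after the totals had been compared. Recovery and calls were tested on simulated data. Promoter windows and sequences are from RefSeq on GRCh38.p14.

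The comparison and the 43 gene lists (986 entries, 949 found in the table) were chosen with earlier results of these data known. The genes named are the 12 highest and 12 lowest protein-coding genes and the 4 highest and 4 lowest others whose mean FPKM reached 5, up to 5 each way past the fold in both effects, the 5 highest and 5 lowest with histidine alone, up to 4 tested members farthest from 0 in each list, and genes the study names. Further list members were named after their values were seen, and not all of these genes are described. Some genes are not reported here. Tried as alternatives were a threshold of 1.5, counting intervals, a pseudocount of 0.1, mean FPKM limits of 0 and 5, protein-coding genes only, and scaling of the libraries to the same total or by the median ratio. The software was scipy 1.17.1, pandas 2.3.3, matplotlib 3.10.9 and numpy 2.4.6 under Python 3.11.15.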

Additional observations from a re-analysis of the deposited data

Results flagged for a closer look

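A total of 24 genes were past the fold in opposite directions with and without 6-MP, 18 of them higher with 6-MP and lower without, and 6 the other way. None of the 24 was protein-coding, and all 24 had under 50 reads in the libraries of at least 1 of the effects. The difference between both effects was not tested in any of them, since each treatment has 1 library.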

How the results depend on the processing

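With the settings reported, 767 genes were past the fold for histidine + 6-MP against 6-MP, 170 for histidine against vehicle and 862 for the difference between both effects. In the same order the counts were 1397, 389 and 1501 with a pseudocount of 0.1, 1172, 374 and 1555 without a filter on low values, 269, 21 and 282 at a mean FPKM of 5 or more, 246, 50 and 295 at a threshold of 1.5, and 381, 19 and 391 among protein-coding genes. Asking for a counting interval off 0 left 62 genes for histidine against vehicle and 641 of the 767, and gives no value for the difference between both effects. Scaling by the median ratio gave 649, 168 and 791 genes, and scaling to the same total gave 785, 169 and 865. The filters, the threshold and the biotype change which genes are counted, and otherwise the cause was not tested. The count with 6-MP was above the count without it under each alternative.

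Of 42 list medians with 6-MP, 12 changed sign under the median ratio, 3 with a mean FPKM of at least 5 (histidine handling, mismatch repair and MHC class I) and 1 (snoRNA hosts) without a filter and among protein-coding genes. Of 159 alternative values of 53 named genes, 155 kept their sign. Many of these genes were named for being farthest from 0, so this count says little about other genes. The 4 values that turned were of genes that the study names, among them MAX, at -0.021 under the median ratio. No paired analysis was possible because there is a single library per treatment, and leaving out a replicate did not apply. Depth limits the short RNAs and genes of few reads most.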
